A study of Mus musculus with 15 samples.

Results

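The Hox genes of the mouse were followed in brown adipose tissue of animals given BPS, which is bisphenol S, an industrial replacement for bisphenol A, or vehicle. Members were all genes of the deposited table whose symbol is Hox followed by a cluster letter from a to d and a paralog number: 28 of 16774 genes. A RefSeq table of the same build lists 39 such genes, and the 11 others (Hoxa13, Hoxb1, Hoxb13, Hoxc10, Hoxc11, Hoxc12, Hoxc13, Hoxd1, Hoxd11, Hoxd12 and Hoxd13) are not analysed here. The 15 bulk RNA-seq libraries comprised 7 from BPS animals and 8 from vehicle animals, called here by the replicate number in their titles, and there is no BPS replicate 7. The sources used here give no strain, sex, age, genotype, dose, duration or fat depot. The labels do not say whether the libraries came from separate animals, so p-values measure only the spread between these samples.

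Hox genes encode homeodomain transcription factors that give cells their position along the head-to-tail axis of the embryo. They lie in 4 clusters, and within a cluster genes with low numbers are used further forward in the body and those with high numbers further back. Mesenchymal cells and fat precursors of the adult keep part of this pattern, so that fat depots from different body regions differ in which Hox genes they transcribe. Numbers 1 to 3 are called anterior here, 4 to 8 central and 9 to 13 posterior.

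Values are FPKM, a level scaled by transcript length and library total, so that levels of different genes can be set side by side. Brown adipocyte transcripts were uneven. Ucp1, the uncoupling protein of heat-producing fat, measured 82.3 FPKM in BPS replicate 4. It measured 578 to 1960 FPKM in the other BPS libraries and 358 to 2321 FPKM in vehicle libraries. A brown adipocyte marker score, a mean of log2(FPKM + 1) over 10 genes, was 5.48 in BPS replicate 4. That score was 6.52 to 7.27 in the other BPS libraries and 6.35 to 7.51 in vehicle libraries. Cidea, Dio2, Cox7a1 and Cox8b were also lowest in BPS replicate 4, whereas Pparg was highest there. Elovl3, Ppargc1a, Prdm16 and Adrb3 were within the vehicle range in that library. BPS replicates 4, 5, 6 and 8 stood apart. Their mean level of 4 Y-linked genes was 0.529%, 49%, 73.2% and 32% of the vehicle mean, against 97.4% to 100% in the other 3 BPS libraries and 80.4% to 117% in vehicle libraries. Their white adipocyte marker score, a mean of log2(FPKM + 1) over 11 genes, was 8.09 to 9.07, against 6.65 to 7.98 in vehicle libraries. Skeletal muscle transcripts also differed between libraries: 16 muscle markers summed to 100.5 to 13970 FPKM in BPS libraries, against 77370, 74640 and 25610 FPKM in vehicle replicates 2, 6 and 8 and 293.7 to 9300 FPKM in the other vehicle libraries. Results are therefore also given without these 4 BPS and 3 vehicle libraries. Epithelial and mesothelial markers were near 0, with sums of at most 1.79 and 1.76 FPKM over the 6 of 12 and 3 of 6 markers in the table.

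**Figure D1:**
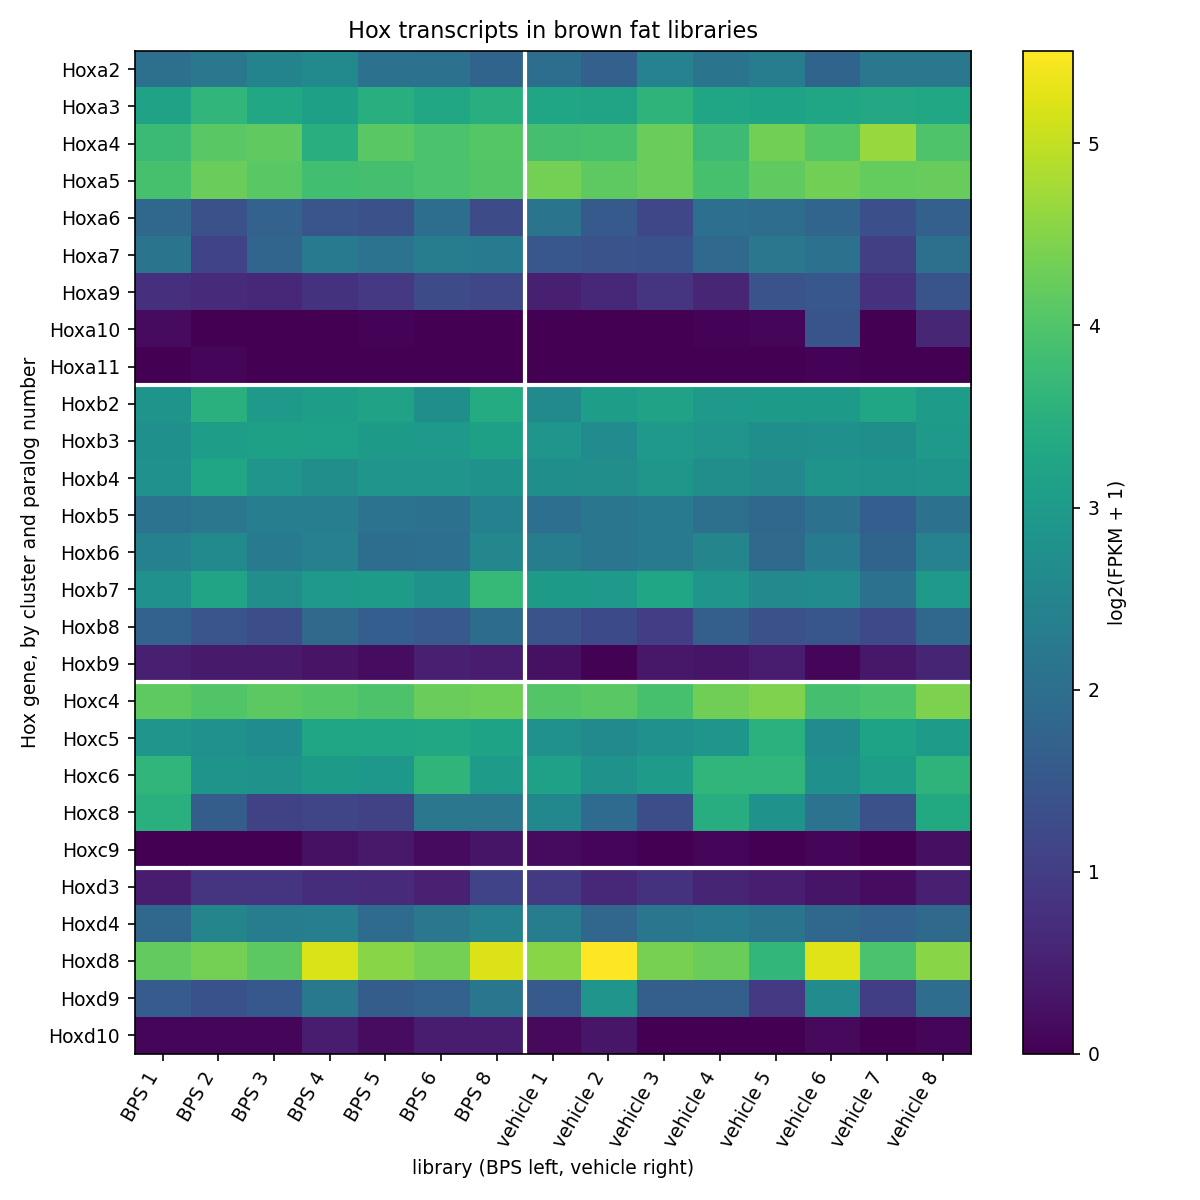
Level of 27 Hox genes (rows, by cluster and paralog number) in each of the 15 libraries (columns, BPS left and vehicle right), as log2(FPKM + 1). In every column the 4 brightest genes are Hoxa4, Hoxa5, Hoxc4 and Hoxd8, and genes from number 10 on stay at or under 0.50 FPKM apart from Hoxa10 in vehicle replicate 6.

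The Hox genes transcribed in this tissue were mostly those of low and middle number, in both groups. Of the 28 genes, 20 reached 1 FPKM in all 15 libraries, and each library had 21 to 23 genes at that level. Hoxd8, Hoxa4, Hoxa5 and Hoxc4 were the 4 highest Hox genes in every library. Summed Hox level was 156.3 ± 13.97 FPKM in BPS libraries and 156.1 ± 9.48 FPKM in vehicle libraries (SD, n = 7 and n = 8). Bulk values cannot tell fewer cells of a type from less RNA per cell.

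Read from front to back, the 15 central genes carried most of the signal. Central genes made up 77.5 ± 1.86% of the Hox sum in BPS libraries and 78.7 ± 1.81% in vehicle libraries (SD, n = 7 and n = 8). The 6 anterior genes made up 20.02 ± 2.16% in BPS libraries and 18.4 ± 2.47% in vehicle libraries. The 7 posterior genes analysed here made up 2.51 ± 0.591% in BPS libraries and 2.83 ± 1.49% in vehicle libraries. Each of these group differences was smaller than the SD of either group. Sums by paralog number cover unequal numbers of genes and are not levels per gene. By paralog number the sum was highest at 4, with 41.2 ± 3.56 FPKM in BPS libraries and 42.4 ± 4.002 FPKM in vehicle libraries. It was next highest at 8, with 29.2 ± 8.67 FPKM in BPS libraries and 30.25 ± 10.9 FPKM in vehicle libraries. It was low at 9, with 3.75 ± 1.08 FPKM in BPS libraries and 4.16 ± 2.06 FPKM in vehicle libraries. At 10 it was 0.211 ± 0.126 FPKM in BPS libraries and 0.354 ± 0.621 FPKM in vehicle libraries.

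The last gene transcribed at 1 FPKM or more lay at similar numbers in the clusters. Its number was 8 in the Hoxb and Hoxc clusters of all 15 libraries. In the Hoxd cluster it was 9, except in vehicle replicate 5, where it was 8. In the Hoxa cluster it was 7 in most libraries, 9 in BPS replicates 6 and 8 and in vehicle replicates 5 and 8, and 10 in vehicle replicate 6.

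The order of the 28 genes by level was alike in the 2 groups. As a description, Spearman's rho across the 28 genes had a median of 0.931 over the 56 pairs of a BPS with a vehicle library, 0.952 over the 21 pairs within BPS and 0.934 over the 28 pairs within vehicle. Its lowest value, 0.872, was between vehicle replicates 2 and 5. The 4 BPS libraries that stood apart resembled the other 11 libraries, with a median of 0.938 and a range of 0.896 to 0.976. The points share genes of very different level, which by itself gives a high rho, and genes are not independent replicates.

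**Figure D2:**
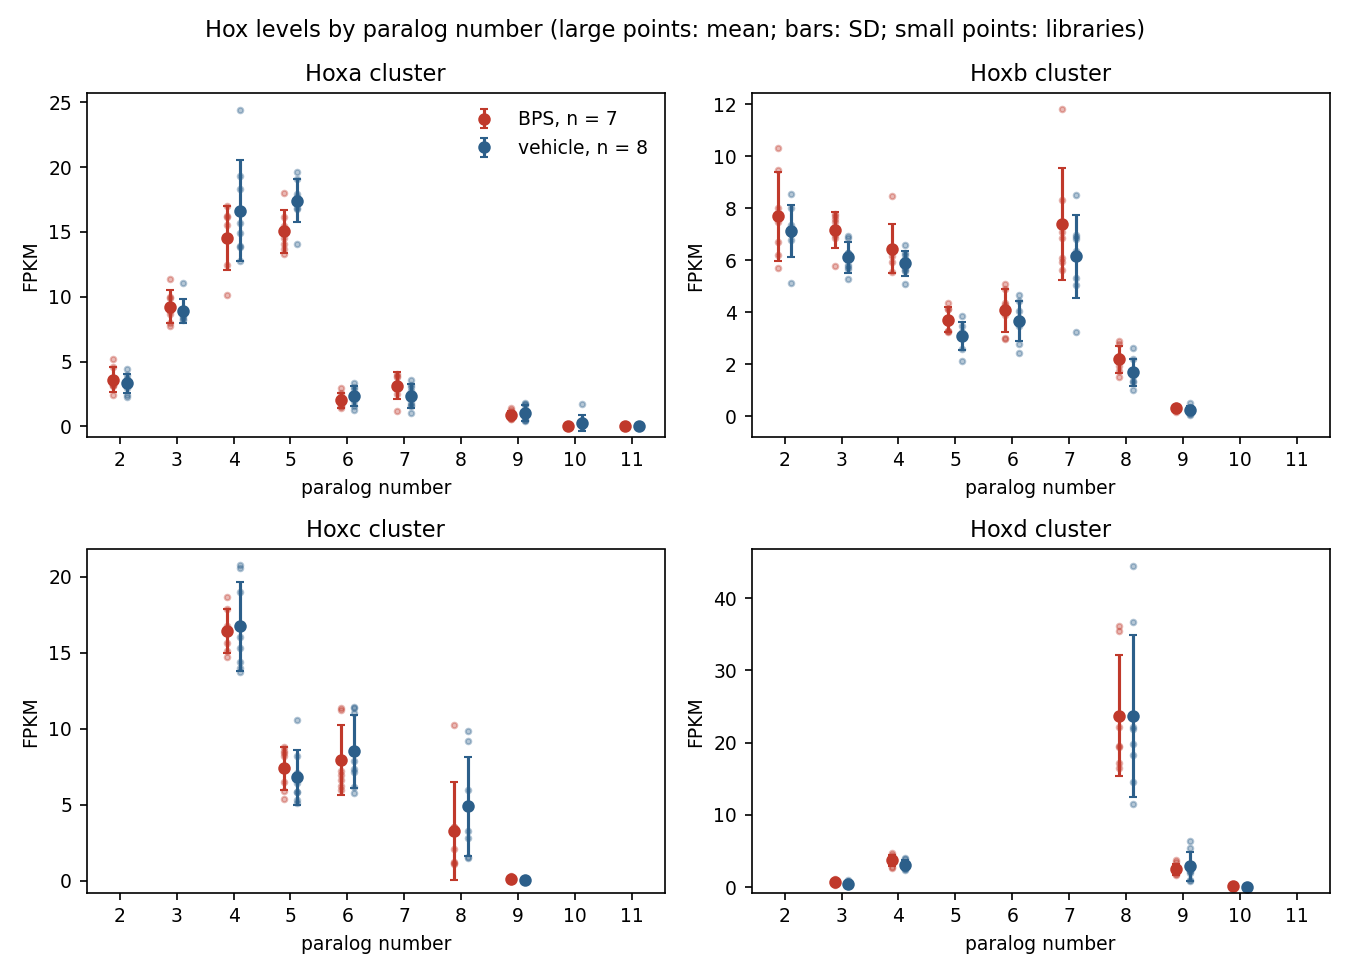
Hox level in FPKM (vertical axis) against paralog number (horizontal axis) in each cluster, for BPS (n = 7) and vehicle (n = 8) libraries; large points are means, bars are SD and small points are libraries. The 2 groups overlap at each number, and the peaks lie at 4 and 5 in Hoxa, at 4 in Hoxc and at 8 in Hoxd.

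The Hoxa cluster, on chromosome 6, held Hoxa4 and Hoxa5, which pattern the neck and upper trunk. Hoxa4 measured 10.1, 15.6 and 17.0 FPKM in BPS libraries (lowest, median and highest), against 12.7, 15.3 and 24.4 FPKM in vehicle libraries. Hoxa5, which is needed for lung formation and is also transcribed in fat, measured 14.1, 18.03, 16.2, 13.3, 13.7, 14.5 and 15.5 FPKM in BPS replicates 1, 2, 3, 4, 5, 6 and 8. In vehicle replicates 1 to 8 it measured 19.6, 16.8, 17.9, 14.1, 16.8, 19.1, 17.4 and 17.7 FPKM. The groups overlapped over much of their ranges, 13.3 to 18.03 FPKM in BPS libraries and 14.1 to 19.6 FPKM in vehicle libraries. The RefSeq promoter of Hoxa5, shown because Hoxa5 had the lowest p among Hox genes that were lower in BPS, spans chr6:52204538-52204837 on the minus strand of GRCm38.p6, from 250 bases before to 50 after the start; capitals mark CCAAT on either strand.
Hoxa5 promoter: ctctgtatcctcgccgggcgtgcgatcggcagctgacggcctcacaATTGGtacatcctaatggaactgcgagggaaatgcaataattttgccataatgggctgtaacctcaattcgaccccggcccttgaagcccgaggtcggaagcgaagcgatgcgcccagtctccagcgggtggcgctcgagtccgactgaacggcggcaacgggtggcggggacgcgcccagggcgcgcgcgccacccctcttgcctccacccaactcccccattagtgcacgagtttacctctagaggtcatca

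The forward genes of the Hoxa cluster had lower levels than Hoxa4 and Hoxa5. Hoxa3, which is needed for thymus and parathyroid formation, measured 7.78, 8.88 and 11.3 FPKM in BPS libraries, against 8.22, 8.62 and 11.1 FPKM in vehicle libraries. Hoxa2, which patterns the pharyngeal arches, measured 2.42, 3.20 and 5.20 FPKM in BPS libraries, against 2.24, 3.46 and 4.42 FPKM in vehicle libraries. The span of the Hoxa3 gene model overlaps Hoxa4, Hoxa5 and Hoxa6, so their reads may be shared. The trunk genes Hoxa6 and Hoxa7 were of like level. Hoxa6 measured 1.43, 1.72 and 2.95 FPKM in BPS libraries, against 1.27, 2.35 and 3.37 FPKM in vehicle libraries. Hoxa7 measured 1.17, 3.37 and 4.07 FPKM in BPS libraries, against 1.06, 2.26 and 3.57 FPKM in vehicle libraries. Hoxa7 was above the vehicle mean in 6 of 7 BPS libraries, BPS replicate 2 being the exception.

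The Hoxb cluster, on chromosome 11, had no single leading gene. Hoxb2, which patterns the hindbrain, measured 5.69, 7.47 and 10.3 FPKM in BPS libraries, against 5.14, 7.10 and 8.55 FPKM in vehicle libraries. Hoxb3, another hindbrain gene, measured 5.79, 7.49, 7.70, 7.57, 6.99, 6.87 and 7.79 FPKM in BPS replicates 1, 2, 3, 4, 5, 6 and 8. In vehicle replicates 1 to 8 Hoxb3 measured 6.29, 5.28, 6.93, 6.28, 5.66, 5.82, 5.73 and 6.87 FPKM. Of the BPS libraries only replicate 1 was below the vehicle mean of Hoxb3, whose gene model overlaps that of Hoxb4. Hoxb4, known for its role in blood stem cells, measured 5.55, 6.33 and 8.48 FPKM in BPS libraries, against 5.07, 5.86 and 6.57 FPKM in vehicle libraries. Hoxb5, which acts in the neural crest of the gut, measured 3.24, 3.59 and 4.36 FPKM in BPS libraries, against 2.13, 3.15 and 3.86 FPKM in vehicle libraries. All 7 BPS libraries exceeded the vehicle mean of Hoxb5, although the groups overlapped. The trunk gene Hoxb6 measured 2.98, 4.29 and 5.08 FPKM in BPS libraries, against 2.41, 3.77 and 4.68 FPKM in vehicle libraries. Hoxb7, also a trunk gene, measured 5.64, 6.84 and 11.8 FPKM in BPS libraries, against 3.24, 6.59 and 8.53 FPKM in vehicle libraries. Hoxb8, which in mice acts in spinal cord and blood cells, measured 1.51, 2.14 and 2.88 FPKM in BPS libraries, against 1.01, 1.60 and 2.63 FPKM in vehicle libraries. The groups overlapped for all 3 of these genes, and BPS replicate 8 was highest for Hoxb7 and Hoxb8. The last gene, Hoxb9, stayed at or below 0.49 FPKM in all 15 libraries. As a whole the cluster held 24.9 ± 2.26% of the Hox sum in BPS libraries and 21.8 ± 1.94% in vehicle libraries (SD, n = 7 and n = 8), with overlapping ranges of 21.8% to 28.9% in BPS and 19.5% to 25.6% in vehicle. The 3 BPS libraries with full Y-linked levels had 25.9 ± 2.89%.

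The Hoxc cluster, on chromosome 15, was highest at Hoxc4 and near 0 at Hoxc9. Hoxc4, the highest gene of the cluster in every library, measured 14.7, 16.4 and 18.7 FPKM in BPS libraries, against 13.8, 15.7 and 20.8 FPKM in vehicle libraries. Hoxc5, its neighbour, measured 5.40, 8.18 and 8.77 FPKM in BPS libraries, against 5.13, 6.14 and 10.5 FPKM in vehicle libraries. Hoxc6, which patterns the forelimb level of the trunk, measured 5.96, 6.97 and 11.3 FPKM in BPS libraries, against 5.78, 7.60 and 11.4 FPKM in vehicle libraries. Hoxc8 and Hoxc9 are of particular use for depot identity, since both are used as markers of white fat in mice. Hoxc8 varied most of the 21 tested Hox genes, with a coefficient of variation of 78.4%. It measured 10.2, 2.09, 1.11, 1.23, 1.13, 3.55 and 3.52 FPKM in BPS replicates 1, 2, 3, 4, 5, 6 and 8. In vehicle replicates 1 to 8 it measured 4.94, 2.79, 1.5, 9.85, 5.96, 3.25, 1.59 and 9.17 FPKM. High values were thus found in BPS replicate 1 and in vehicle replicates 4 and 8, and of the 5 highest libraries for Hoxc8, 4 were also among the 5 highest for Hoxc6. The 4 BPS libraries with high white adipocyte marker scores measured 1.13 to 3.55 FPKM of Hoxc8, inside the vehicle range apart from replicates 4 and 5, which lay below it. Hoxc9 was at most 0.29 FPKM. It measured 0.19, 0.29, 0.12 and 0.24 FPKM in BPS replicates 4, 5, 6 and 8, was listed at 0 in BPS replicates 1, 2 and 3, and reached at most 0.17 FPKM in vehicle libraries. Those 4 libraries are the ones with low Y-linked and high white adipocyte scores, whose part in the Hoxc9 values was not tested.

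The Hoxd cluster, on chromosome 2, was dominated by Hoxd8, a trunk gene that was the highest Hox gene of many libraries and never below rank 4. Hoxd8 measured 17.2, 19.5, 16.5, 35.4, 22.1, 19.4 and 36.1 FPKM in BPS replicates 1, 2, 3, 4, 5, 6 and 8. In vehicle replicates 1 to 8 Hoxd8 measured 22.2, 44.5, 19.8, 18.3, 11.6, 36.7, 14.5 and 21.9 FPKM. Each group thus had a pair of libraries at 35.4 FPKM or more and the rest at 22.2 FPKM or less. Its neighbour Hoxd9, which acts in the lower trunk and limbs, measured 2.06, 1.62, 1.86, 3.69, 2.07, 2.34 and 3.49 FPKM in BPS replicates 1, 2, 3, 4, 5, 6 and 8. In vehicle replicates 1 to 8 Hoxd9 measured 1.95, 6.35, 2.19, 2.17, 0.88, 5.34, 1.02 and 2.91 FPKM. The 4 highest libraries of Hoxd8 were the 4 highest of Hoxd9 (BPS replicates 4 and 8, vehicle replicates 2 and 6), and the 2 lowest of both were vehicle replicates 5 and 7. Their promoters are shown because the pair was high and low in the same libraries. In GRCm38.p6 they span chr2:74704365-74704664 and chr2:74697513-74697812, both on the plus strand, with capitals for CCAAT on either strand.
Hoxd8 promoter: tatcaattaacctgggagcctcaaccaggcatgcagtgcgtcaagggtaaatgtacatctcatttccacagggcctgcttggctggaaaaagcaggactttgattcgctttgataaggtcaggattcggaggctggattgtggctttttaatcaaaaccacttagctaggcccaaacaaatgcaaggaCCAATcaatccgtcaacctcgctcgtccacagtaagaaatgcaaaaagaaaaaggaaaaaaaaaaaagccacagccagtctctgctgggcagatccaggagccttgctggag
Hoxd9 promoter: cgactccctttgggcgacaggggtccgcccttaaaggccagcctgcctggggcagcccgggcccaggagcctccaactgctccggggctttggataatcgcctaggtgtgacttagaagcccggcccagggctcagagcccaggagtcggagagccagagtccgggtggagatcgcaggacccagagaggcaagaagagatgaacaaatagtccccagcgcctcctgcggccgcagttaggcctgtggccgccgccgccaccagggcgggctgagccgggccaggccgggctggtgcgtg

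Muscle markers stood beside high Hoxd8 and Hoxd9 in the vehicle pair but not in the BPS pair. Vehicle replicates 2 and 6 had the highest muscle scores of all libraries, 10.8 each as a mean of log2(FPKM + 1). BPS replicate 4 had a muscle score of 5.47, and BPS replicate 8 had the lowest of all libraries, 0.869. BPS replicates 4 and 8 had the lowest Y-linked levels, 0.529% and 32% of the vehicle mean, and the part of either feature in the Hoxd values was not tested. The ratio of Hoxd9 to Hoxd8 was 0.0831 to 0.121 in BPS libraries and 0.0704 to 0.146 in vehicle libraries. The forward genes Hoxd3 and Hoxd4, which act at neck level, had lower levels than Hoxd8. Hoxd4 measured 2.65, 3.94 and 4.68 FPKM in BPS libraries, against 2.31, 3.04 and 4.08 FPKM in vehicle libraries. Hoxd3 measured 0.34, 0.64 and 1.17 FPKM in BPS libraries, against 0.14, 0.44 and 0.91 FPKM in vehicle libraries, and its gene model overlaps that of Hoxd4.

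**Figure D3:**
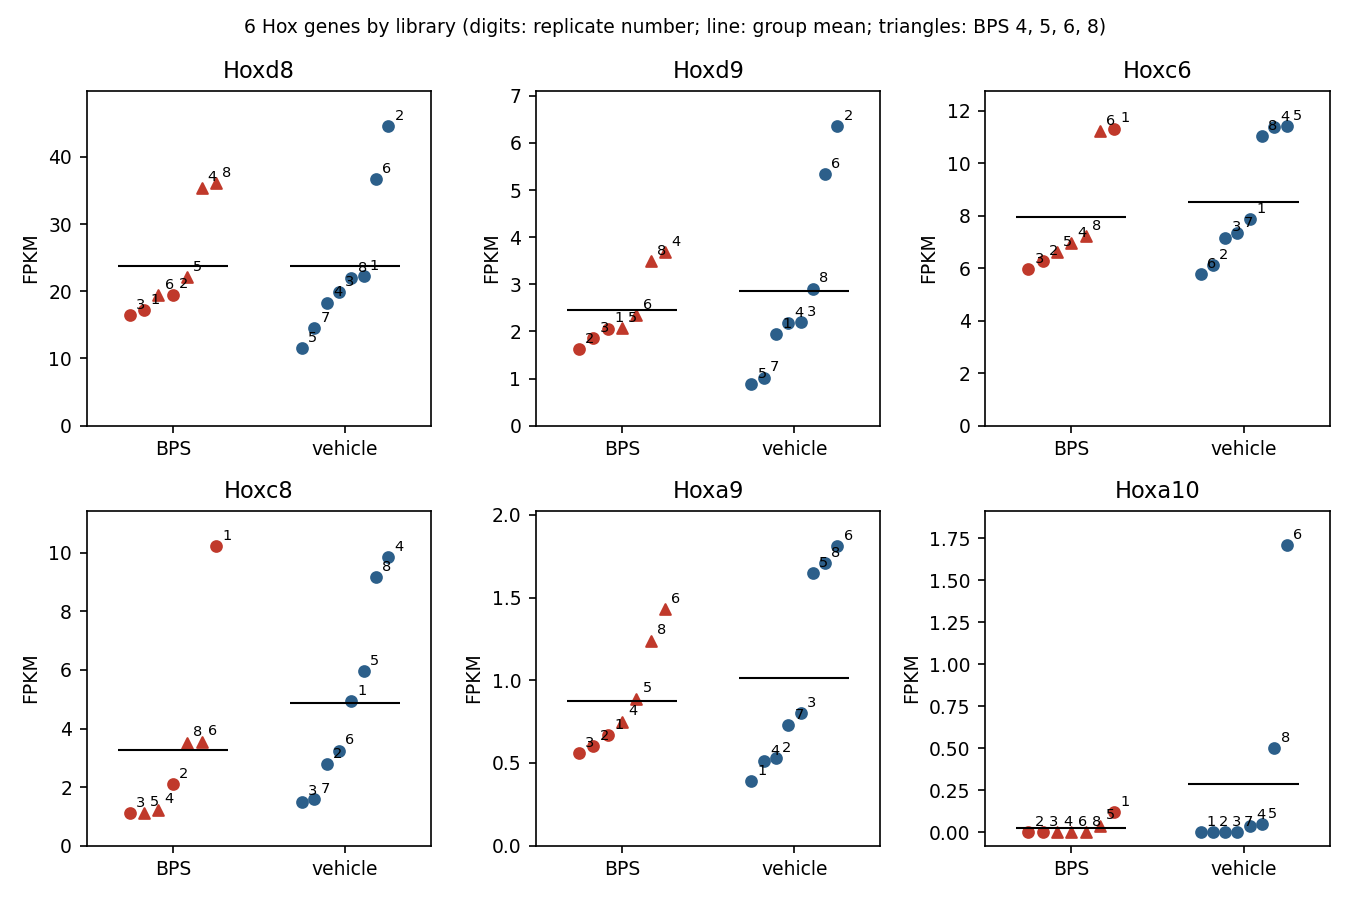
FPKM (vertical axes) of 6 Hox genes in each BPS (left) and vehicle (right) library; digits are replicate numbers, lines are group means and triangles are BPS replicates 4, 5, 6 and 8. The same 4 libraries lead in Hoxd8 and Hoxd9, Hoxc8 is high in BPS replicate 1 and vehicle replicates 4 and 8, and Hoxa10 reaches 1.71 FPKM in vehicle replicate 6 alone.

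Promoter sequence was at hand for 16 of the 28 genes, as 17 entries of 300 bases from RefSeq. The letters CCAAT on either strand were present in 58.8% of these entries and in 37.4% of all 32851 promoters of the table. TATAAA was in 17.6% of the Hox entries and 13.6% of all, TGATNNAT in 11.8% and 8.85%, and TTTATG in 23.5% and 11.9%. The Hox entries held a median of 14 CpG dinucleotides, against 7 over all promoters, with 29 for Hoxa5, 20 for Hoxd9 and 6 for Hoxd8. The relation of CpG number to the levels of Hoxd8 and Hoxd9 over the libraries was not tested. All these motif and CpG values are counts of letters in a window and say nothing of binding.

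Posterior genes, which would mark tissue from further back in the body, were low but not equally so in all libraries. Hoxa9, known for its role in blood stem cells, measured 0.67, 0.60, 0.56, 0.75, 0.89, 1.43 and 1.24 FPKM in BPS replicates 1, 2, 3, 4, 5, 6 and 8. In vehicle replicates 1 to 8 Hoxa9 measured 0.39, 0.53, 0.80, 0.51, 1.65, 1.81, 0.73 and 1.71 FPKM. It passed 1 FPKM in BPS replicates 6 and 8 and in vehicle replicates 5, 6 and 8. Hoxa10, which acts in lumbar vertebrae and the uterus, was listed at 0 in 9 of 15 libraries and reached 1.71 FPKM in vehicle replicate 6, 0.50 FPKM in vehicle replicate 8 and 0.12 FPKM in BPS replicate 1. Hoxa11, which patterns the limb, was listed at 0 in 13 libraries and was at most 0.05 FPKM in the others. Hoxd10, a lumbar and limb gene, measured 0.35, 0.13, 0.33 and 0.33 FPKM in BPS replicates 4, 5, 6 and 8, 0.06 FPKM in each of the other 3 BPS libraries, and at most 0.26 FPKM in vehicle libraries. As with Hoxc9, its higher BPS values fell in the 4 libraries with low Y-linked levels, and the part of that in the result was not tested.

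The share of posterior genes in the Hox sum was highest in 3 vehicle libraries. In BPS replicates 4, 5, 6 and 8 it was 2.41% to 3.22%, and in BPS replicates 1, 2 and 3 it was 1.97 ± 0.277% (SD, n = 3). It was 4.38%, 5.595% and 3.43% in vehicle replicates 2, 6 and 8, which were also the 3 with the most muscle transcripts, and as low as 1.44% in the other vehicle libraries. With vehicle replicates 2, 6 and 8 left out, this share averaged 2.51% in BPS libraries and 1.85% in vehicle libraries. The difference was 1.36 pooled SDs, against -0.28 pooled SDs over all 15 libraries, values with no test. Those 3 libraries were the highest for this share, so leaving them out by itself lowers the vehicle mean. With BPS replicates 4, 5, 6 and 8 left out as well, the means were 1.97% in BPS libraries and 1.85% in vehicle libraries. The part of muscle transcripts in these values was not tested. On average Hoxd9 gave 2.45 of 3.97 FPKM of posterior genes in BPS libraries and 2.85 of 4.52 FPKM in vehicle libraries. The share is therefore not separate from the Hoxd9 values above. It also leaves out Hoxa13, Hoxb13, Hoxc10, Hoxc11, Hoxc12, Hoxc13, Hoxd11, Hoxd12 and Hoxd13, which are not analysed here.

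**Figure D4:**
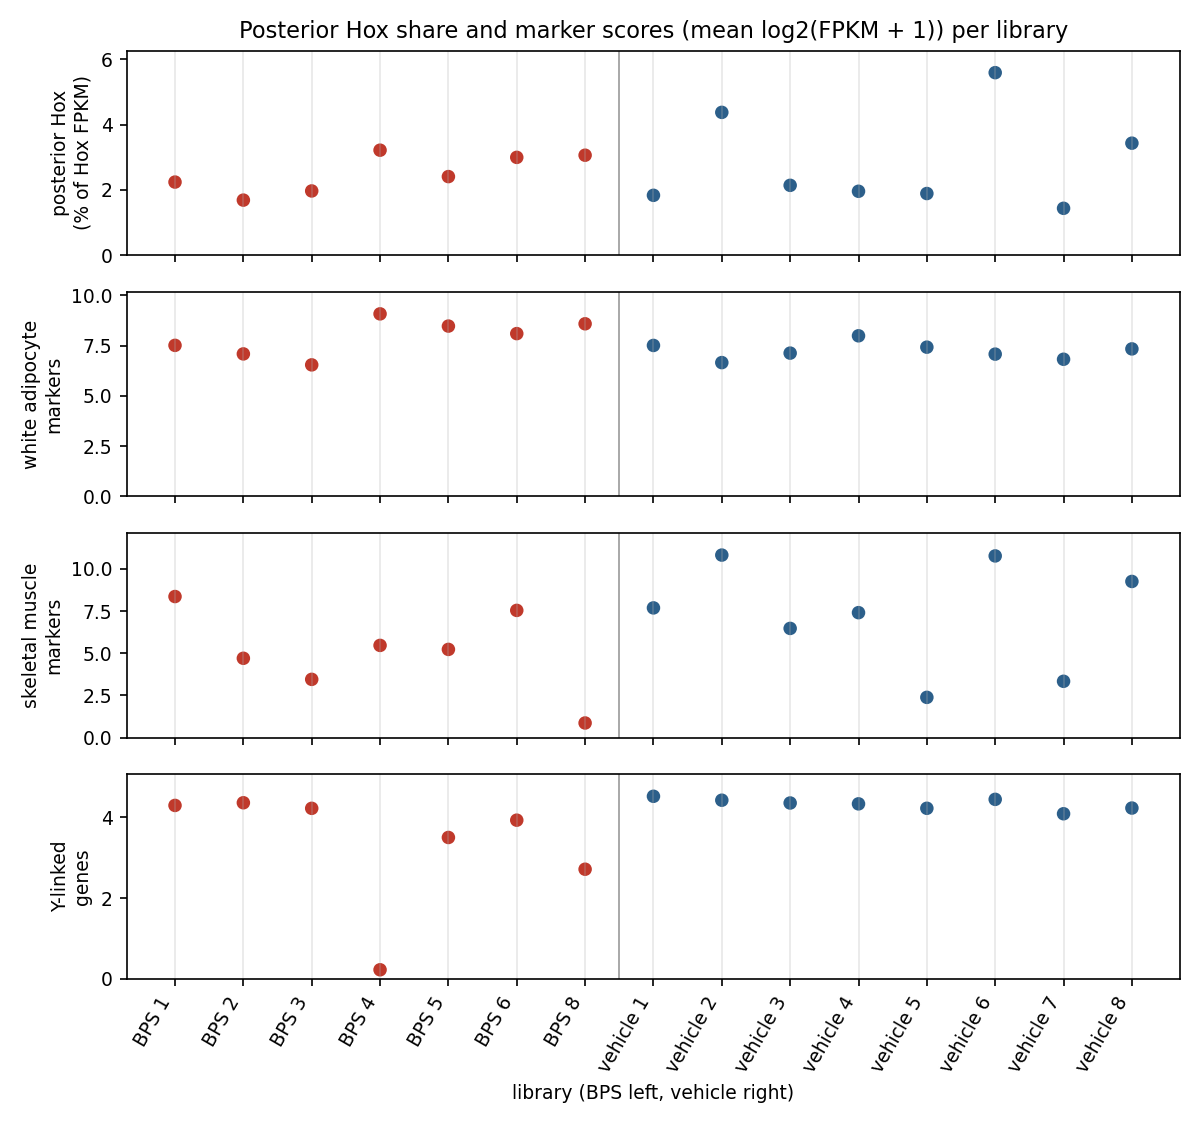
Posterior Hox share of the Hox sum (top, percent) and mean log2(FPKM + 1) of white adipocyte, skeletal muscle and Y-linked marker genes (lower panels) in each library, BPS left and vehicle right. Vehicle replicates 2 and 6 are highest in posterior share and in muscle markers, and BPS replicates 4, 5, 6 and 8 are highest in white adipocyte markers and lowest in Y-linked genes.

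BPS against vehicle was tested with limma on log2(FPKM + 1). The fit covered 12156 genes that reached 1 FPKM in 7 or more libraries, and genes were called at a Benjamini-Hochberg adjusted p under 0.05. No Hox gene passed: 0 of 21 tested Hox genes were called, where 0.411% of all tested genes were (0.346% higher and 0.0658% lower in BPS). By limma's unadjusted p, 3 of 21 Hox genes (14.3%) were below 0.05, where 23.1% of all tested genes were. An exact permutation test over all 6435 splits, adjusted over all tested genes, also called 0 Hox genes, against 41 genes in all. Groups that did not overlap were found for 0 of 21 Hox genes, where 0.576% of all tested genes had them. Without BPS replicates 4, 5, 6 and 8, limma called 0 of 21 Hox genes against 0.271% of all tested genes, 0 Hox genes had an unadjusted p under 0.05, where 8.03% of all did, and 0 Hox genes had groups that did not overlap, against 2.85% of all. Without vehicle replicates 2, 6 and 8 limma called 0 genes in all, with 3 Hox genes among 1440 (11.8% of all tested) at an unadjusted p under 0.05. Without all 7 of these libraries it called 0 Hox genes against 0.0576% of all. The other 7 members (Hoxa9, Hoxa10, Hoxa11, Hoxb9, Hoxc9, Hoxd3 and Hoxd10) were below the minimum and not tested. In the authors' deposited table, 0 of 28 Hox genes had q under 0.05, where 5.74% of all genes with a q did. There 2 of 28 Hox genes had p under 0.05. The share of all genes with such a p was not counted, so nothing is read from that number.

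The 3 genes with the smallest p were Hoxb3, Hoxa5 and Hoxb5, given here with two-sided exact permutation p-values that are not adjusted. Hoxb3 averaged 7.17 ± 0.702 FPKM in BPS libraries and 6.11 ± 0.589 FPKM in vehicle libraries (SD, n = 7 and n = 8), a log2 change of 0.20 ± 0.073 (SE; exact permutation p = 0.0107, limma adjusted p = 0.139). Hoxa5 averaged 15.04 ± 1.65 FPKM in BPS libraries and 17.4 ± 1.69 FPKM in vehicle libraries, a log2 change of -0.20 ± 0.078 (exact permutation p = 0.0197, limma adjusted p = 0.157). Hoxb5 averaged 3.71 ± 0.483 FPKM in BPS libraries and 3.08 ± 0.526 FPKM in vehicle libraries, a log2 change of 0.21 ± 0.095 (exact permutation p = 0.0295, limma adjusted p = 0.197). None of these passed the adjusted threshold. In the authors' deposited table the log2 ratio was -0.29 for Hoxa5 (p = 0.00333, q = 0.0558) and 0.18 for Hoxb3 (p = 0.015, q = 0.118). Without BPS replicates 4, 5, 6 and 8 the log2 changes were 0.17 for Hoxb3, -0.11 for Hoxa5 and 0.20 for Hoxb5, with limma adjusted p of 0.701, 0.783 and 0.703.

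By cluster, the direction was most even in Hoxb. All 7 tested Hoxb genes had a positive log2 change, from 0.08 for Hoxb2 to 0.25 for Hoxb8, and all 7 were positive again without BPS replicates 4, 5, 6 and 8, although none passed the test. Genes of a cluster are neighbours in the same libraries and are not independent. In Hoxa 4 of 7 were positive, in Hoxc 1 of 4 and in Hoxd 2 of 3. Without the same 4 libraries 2 were positive in Hoxa, 0 in Hoxc and 1 in Hoxd. Over the 21 genes 14 were positive with a median of 0.08, where 58.5% of all tested genes were positive with a median of 0.05. Without the 4 BPS libraries 10 of 21 were positive and the median was -0.0043, where 6275 of all 12156 tested genes were positive with a median of 0.0074. By number, all 5 tested anterior genes were positive, 9 of 15 central genes were, and the 1 tested posterior gene, Hoxd9, was not. Without the 4 BPS libraries 4 anterior and 6 central genes were positive, and Hoxd9 again was not.

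The size of change that these libraries could still hold differed by gene. With all 15 libraries on log2(FPKM + 1), the 95% interval of the log2 change lay between -1 and 1 for 20 of 21 tested Hox genes. Hoxc8 was the exception: it averaged 3.26 ± 3.25 FPKM in BPS libraries and 4.88 ± 3.24 FPKM in vehicle libraries, a log2 change of -0.53 with an interval of -1.39 to 0.33. Without BPS replicates 4, 5, 6 and 8 the lower ends reached -1.001 for Hoxd8, -1.10 for Hoxd9 and -1.59 for Hoxc8. Hoxa7 had the highest log2 change, 0.32 (interval -0.11 to 0.75), and its change was -0.0043 without the 4 BPS libraries. On log2(FPKM + 0.1) with no minimum FPKM the interval of Hoxa7 reached 1.04. Hoxd8 averaged 23.7 ± 8.40 FPKM in BPS libraries and 23.7 ± 11.2 FPKM in vehicle libraries, a log2 change of 0.06 (interval -0.50 to 0.61). It was -0.28 without the 4 BPS libraries and 0.41 without the 3 vehicle libraries rich in muscle transcripts, with limma adjusted p of 0.805 and 0.451. The tested Hox genes had a median coefficient of variation of 22.2% over the 15 libraries, against 19.4% over all tested genes.

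**Figure D5:**
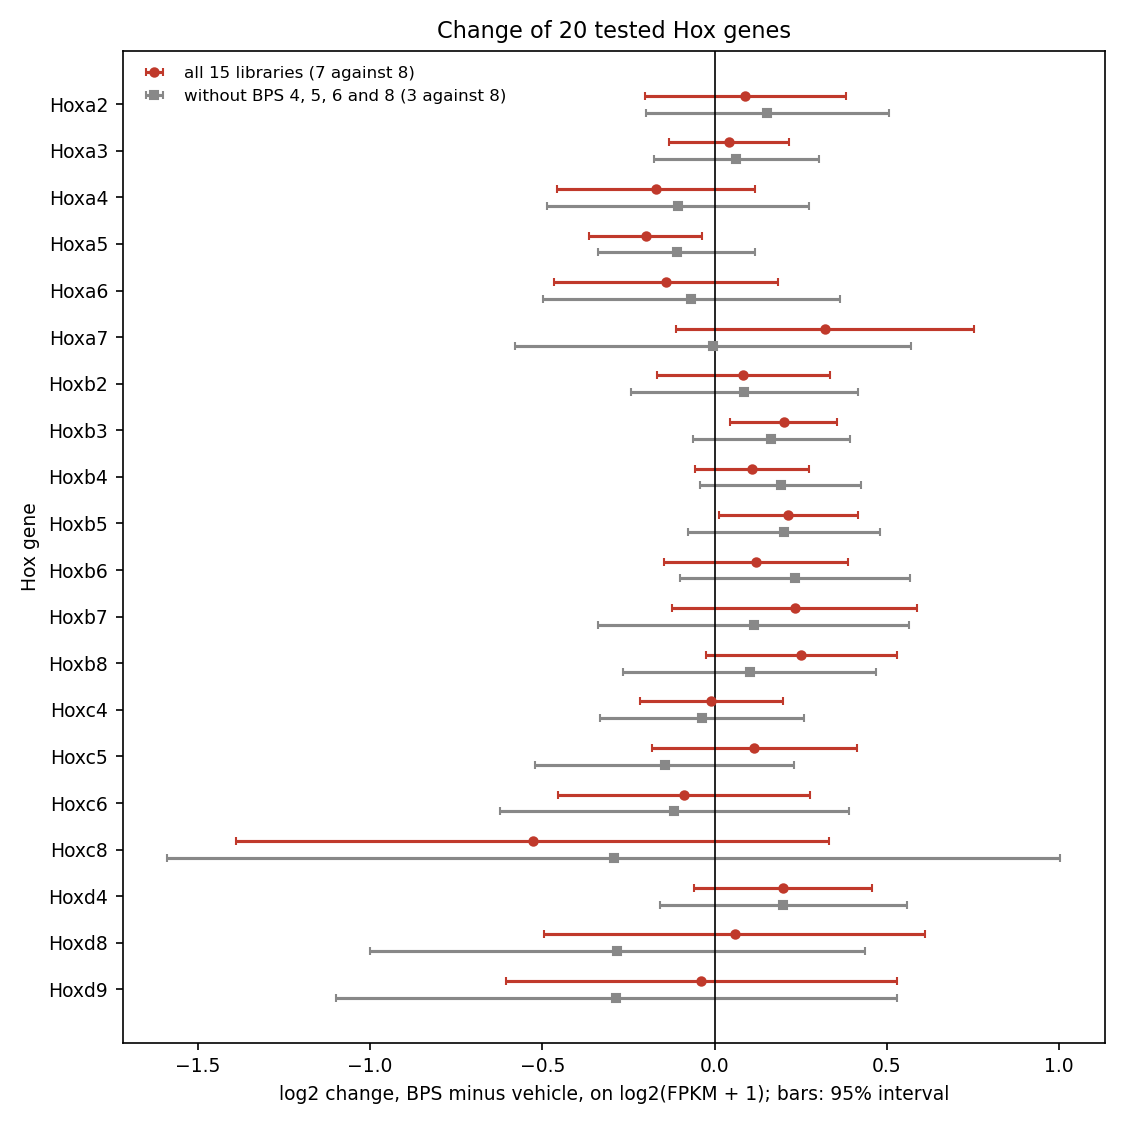
Log2 change of 20 tested Hox genes, BPS minus vehicle on log2(FPKM + 1), with 95% intervals, in all 15 libraries (red) and without BPS replicates 4, 5, 6 and 8 (grey). The 7 Hoxb genes lie right of 0 in both, Hoxc8 has the widest interval, and Hoxa7 and Hoxd8 move left without the 4 libraries.

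Hox proteins bind DNA with TALE homeodomain cofactors, the Pbx, Meis and Pknox proteins. Of 9 such genes 7 were tested, 0 were called by limma and 7 had a positive log2 change, with a median of 0.15 against 0.05 over all tested genes. Pknox1 averaged 3.61 ± 0.281 FPKM in BPS libraries and 3.04 ± 0.424 FPKM in vehicle libraries (limma adjusted p = 0.16). Meis3, Meis2 and Meis1 had log2 changes of 0.38, 0.24 and 0.15, with limma adjusted p of 0.315, 0.344 and 0.363. Without BPS replicates 4, 5, 6 and 8, 2 of 7 were positive with a median of -0.04. Meis3 was 11.1 and 9.47 FPKM in BPS replicates 4 and 8, and at most 5.57 FPKM in vehicle libraries.

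Polycomb proteins keep Hox genes silent and trithorax proteins keep them active. All 26 genes of this list were tested, 0 were called by limma, 5 (19.2%) had an unadjusted p under 0.05, where 23.1% of all tested genes did, and 17 had a positive log2 change, with a median of 0.09. The 4 of smallest p were Kdm6a, Cbx7, Ezh1 and Men1, with log2 changes of 0.41, 0.30, 0.20 and 0.19 and limma adjusted p of 0.123, 0.139, 0.163 and 0.179. Kdm6a, which is X-linked, measured 9.92, 7.49, 6.83 and 7.95 FPKM in BPS replicates 4, 5, 6 and 8, against 3.84 to 5.39 FPKM in vehicle libraries, and its log2 change was 0.02 without those 4. Retinoic acid helps set the forward limits of Hox genes in the embryo. A further list of 13 genes held genes of retinoic acid signalling, the Cdx family and Gdf11, which belongs to neither. Of these 9 were in the table and 6 were tested, with 0 called by limma and a median log2 change of 0.10. Cyp26b1, which breaks down retinoic acid, measured 5.31, 3.22, 2.94 and 3.53 FPKM in BPS replicates 4, 5, 6 and 8, against 0.98 to 2.30 FPKM in vehicle libraries. Its log2 change was 0.52 ± 0.171 (limma adjusted p = 0.119), and 0.13 without those 4. Rara, Gdf11 and Rarb had log2 changes of 0.21, -0.23 and 0.10, with limma adjusted p of 0.287, 0.308 and 0.523. Without those 4 libraries these changes were 0.32, -0.0058 and -0.04.

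Other transcription factors that mark position gave a second view of depot identity. Of 30 listed genes 24 were in the table and 16 were tested, with 0 called by limma, 11 negative and a median log2 change of -0.22, and -0.03 without BPS replicates 4, 5, 6 and 8. Tbx5, a factor of the forelimb and heart field, measured 0.47, 1.10, 1.91 and 1.06 FPKM in BPS replicates 4, 5, 6 and 8. It measured 1.84, 4.99 and 3.53 FPKM in BPS replicates 1, 2 and 3 and 2.19 to 8.46 FPKM in vehicle libraries. These 4 and BPS replicate 1 were thus below every vehicle library. The log2 change of Tbx5 was -0.82 ± 0.277 (limma adjusted p = 0.122), and -0.22 without BPS replicates 4, 5, 6 and 8. Tbx15, a factor of muscle and of some fat depots, measured 1.42 to 9.22 FPKM in BPS libraries, against 38.95, 37.01 and 14.8 FPKM in vehicle replicates 2, 6 and 8 and at most 7.32 FPKM in the other vehicle libraries. Irx5 measured 0.88 to 2.64 FPKM in BPS libraries and was likewise highest in vehicle replicates 2 and 6, at 9.10 and 8.02 FPKM, the libraries that led in muscle markers, Hoxd8 and Hoxd9. The log2 changes of Tbx15 and Irx5 were -0.70 and -0.39, and 0.29 and 0.21 without vehicle replicates 2, 6 and 8. Zic1, a marker of classical brown fat, averaged 2.52 ± 0.955 FPKM in BPS libraries and 2.31 ± 0.495 FPKM in vehicle libraries (limma adjusted p = 0.791). BPS replicate 5 had 4.58 FPKM of Zic1 and the other BPS libraries 1.78 to 2.55 FPKM. The log2 change of Zic1 was 0.07, and -0.0049 without BPS replicates 4, 5, 6 and 8. Lhx8, another brown fat marker, averaged 4.56 ± 1.77 FPKM in BPS libraries and 3.15 ± 1.16 FPKM in vehicle libraries (limma adjusted p = 0.268). Lhx8 was 6.32, 6.5 and 6.27 FPKM in BPS replicates 4, 5 and 8, and its log2 change was 0.40 over all libraries and 0.06 without BPS replicates 4, 5, 6 and 8. The somite genes Meox1, Meox2 and Dmrt2 had log2 changes of -0.44, -0.20 and -0.26, with limma adjusted p of 0.218, 0.594 and 0.265. Without those 4 libraries these changes were 0.02, 0.21 and -0.16. The log2 changes of Irx3, Shox2, Nr2f1, Nr2f2, Foxc1 and Tbx18 lay between -0.28 and 0.22, with limma adjusted p of 0.301 to 0.936. Of these, Irx3 was 0.04 and Nr2f2 -0.02 without the same 4 libraries. A list of 15 genes, the noncoding RNAs of the Hox clusters and the Evx genes, had no member in the table and is not analysed here.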

How the data were processed

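The deposited table gives FPKM (fragments scaled by transcript length and library total) per gene and library, to 2 decimals, as made by the authors. Per the submitters' processing notes, the build was GRCm38.p6 and the tools included RSEM 1.3.1, DESeq2 1.4.5, HISAT2 2.1.0 and Bowtie2. Per the labels' protocols, poly(A) RNA was selected. The authors' deposited log2 ratios, p-values and q-values were used only where named. FPKM keep no counts, so depth is unknown, and a rise of abundant transcripts lowers all other values. The FPKM of a library summed to 756556 to 920855. The highest correlation between 2 libraries was 0.994, and none were merged.

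All genes were fitted with limma 3.58.1 (trend, robust; R 4.3.3) on log2(FPKM + 1), a scale that understates changes of low genes. Genes at 1 FPKM or more in at least 7 libraries were tested. The design had allowed for counts, and the table held FPKM, so limma was used. The scripts were tested on simulated data. Errors are SDs for FPKM and SEs for log2 changes. The members, the lists and the libraries set apart were chosen with earlier results of these data known. Named genes were all Hox genes, the 4 of smallest p of each other list, and position genes with a mean of at least 1 FPKM. Of these, 1 Hox gene and 1 position gene are not reported here, though all fits and counts include them. Any other gene or library named was chosen after its values were seen. RefSeq and GENCODE coordinates are of GRCm38.p6. Alternatives were other pseudocounts, filters, scalings and spreads, an exact permutation test, a replicate block and libraries left out.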

Additional observations from a re-analysis of the deposited data

Results flagged for a closer look

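In 9 of 72 groups of Hox values (12.5%), 1 library lay far from the rest of its group by Dixon's test. The test's rate of about 1 in 20 holds for independent groups of normally distributed values. FPKM with many values at 0 are skewed, and sums of the same genes were among the groups. The share flagged therefore cannot be set against that rate. BPS replicate 1 had 10.22 FPKM of Hoxc8, with the next BPS library at 3.55 FPKM. BPS replicate 8 had 11.83 FPKM of Hoxb7, with the next at 8.31 FPKM. BPS replicate 2 had 8.48 FPKM of Hoxb4, with the next at 6.36 FPKM. Vehicle replicate 3 had 11.06 FPKM of Hoxa3, with the next vehicle library at 8.99 FPKM. Vehicle replicate 6 had 1.71 FPKM of Hoxa10, with the next at 0.50 FPKM. Vehicle replicate 2 had 0.26 FPKM of Hoxd10, with the next at 0.11 FPKM. The other 3 were at the lower end of the scale: Hoxa10 at 0.12 FPKM in BPS replicate 1, and Hoxa11 at 0.05 FPKM in BPS replicate 2 and 0.04 FPKM in vehicle replicate 6. All 9 were high values, and no cause was tested.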

How the results depend on the processing

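No Hox gene was called under any alternative tried, with a smallest adjusted p of 0.0812 over 599 values, and 570 of those kept their direction. Over the alternatives the adjusted p ran between 0.0812 and 1 for Hoxa5 and between 0.0857 and 0.984 for Hoxb3. The count of calls over all genes moved more: 50 as reported, 17 with a pseudocount of 5, 9 with no filter, 29 with a filter of 5 FPKM, 19 with no filter and a pseudocount of 0.1, and 79 with median scaling. It was 1 to 88 when any 1 library was left out, and 33, 0 and 7 without BPS replicates 4, 5, 6 and 8, without vehicle replicates 2, 6 and 8, and without all 7. The cause was not tested. Directions turned for some genes, among them Hoxa7, which had the highest log2 change over all 15 libraries, 0.32. Hoxd9 was 0.0069 with a pseudocount of 0.1, with or without the filter, and Hoxa3 was -0.0029 with quantile normalization. Without the 4 BPS libraries Hoxa7 was -0.0043, Hoxc5 -0.15 and Hoxd8 -0.28. Without the 3 vehicle libraries Hoxa2 was -0.031 and Hoxd9 0.39. The difference in the summed FPKM of posterior Hox genes then moved to 1.22 pooled SDs, against -0.27 over all 15. Those 3 vehicle libraries were also the highest in that sum. Without all 7 Hoxc5 was -0.25 and Hoxd9 0.14. With any 1 library left out Hoxa3 ran between -0.0040 and 0.084, Hoxc4 between -0.045 and 0.035, Hoxd8 between -0.065 and 0.20, and Hoxd9 between -0.16 and 0.12.

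Whether replicate numbers shared by the groups pair the libraries was not settled. The correlation of deviations ran from -0.418 to 0.583 and was over 0.1 in 4 of 7 pairs. Of the 7 BPS libraries, 3 correlated best with their own number. A replicate block needs each number in both groups, so vehicle replicate 7 was left out of it. That fit called 0 Hox genes and 38 genes in all, and Hoxd8 was -0.021. In complete pairs the log2 change equals the difference of the group means, so this value of Hoxd8 says nothing of pairing. Depth is unknown without counts, so a Hox gene listed at 0 cannot be given an upper limit.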
